A study of Mus musculus with 2 samples.

Results

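Imprinted genes are expressed mainly from the copy inherited from 1 parent, in some cases only in certain tissues or isoforms. Here 37 of them were examined in the open chromatin of the embryonic mouse limb. The 37 were given as a list of names, all found in GENCODE M21 (mm10), and they are 37 of the 55413 annotated genes on the autosomes, X and Y. Of these, 33 are protein-coding and 4 are noncoding: H19, Airn, Kcnq1ot1 and Meg3. For each gene, peaks were placed at its starts (within 500 bp of any annotated transcription start site), in its body outside those windows, or in its flanks (within 20 kb on either side).

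DNase-seq, which maps DNA that the nuclease DNase I can reach, was carried out on limbs of B6NCrl mouse embryos of age 14.5 days, with males and females pooled. The labels give 1 group with 2 biological replicates, both untreated as far as the labels go and both carrying the same donor identifier, so whether they are separate sets of embryos is not settled. Replicate 1 had 208674 peaks of 150 bp on the chromosomes used and replicate 2 had 196593, with median signals of 42 and 31 in the authors' own unit. The signal is compared here only within a list, as a percentile of all its peaks, and the number of reads is unknown, so a gene without a peak is one where none was called. A peak was called shared when at least 50% of its bases lay under 1 peak of the other replicate; 61.2% of all peaks of replicate 1 and 65% of those of replicate 2 were. Genes of limb tissue (Prrx1, Sox9, Col2a1, Hoxd13, Myod1 and Trp63) each had a shared peak at a start. Their strength ran from 29 and 42 at Trp63 (19.8 and 70.8 percentiles in replicates 1 and 2) to 122 and 102 at Sox9 (97.1 and 97.6). Alb, Gad1 and Myh6, which mark liver, neurons and heart, had 1 start peak each in replicate 1 and 0 in replicate 2.

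Imprinting rests on control regions, short stretches of CpG-rich DNA that are methylated in the germ line of one parent and keep that mark after fertilisation. The unmethylated copy can bind factors such as CTCF, which insulates enhancers from promoters, or start a noncoding RNA that silences its neighbours in cis, while ZFP57 and its partners hold the methylation on the other copy. Many imprinted genes act on growth, and the mesenchyme of the embryonic limb expresses several of them. The peaks are summed over both parental copies of an inbred strain, so maternal and paternal chromatin cannot be told apart here, and methylation was not measured.

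The following sequences are those of shared peaks at control regions and at the starts of the noncoding genes, taken from the GRCm38 (mm10) genome and shown to let the open 150 bp be read beside their signals. Each is written 5′ to 3′ in the direction in which the named gene is transcribed. Capitals mark matches, on either strand, to TGCCGC (the ZFP57 motif), GGNGGCAG (the core of the CTCF site), GCCATNTT (YY1) or GCGCATGCG (NRF1). The strongest peak of a region was the rule; the peaks 2167 and 3667 bp upstream of H19, 819 bp inside Kcnq1ot1 and 2501 bp inside Peg3, and the choice among the other regions, were picked after their values and matches were seen.
H19, 2167 bp upstream of the start (chr7:142580236-142580385, minus strand): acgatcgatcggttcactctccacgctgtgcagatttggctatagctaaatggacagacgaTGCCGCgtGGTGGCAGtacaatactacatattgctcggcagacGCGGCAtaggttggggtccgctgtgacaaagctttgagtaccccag
H19, 2607 bp upstream (chr7:142580676-142580825, minus strand): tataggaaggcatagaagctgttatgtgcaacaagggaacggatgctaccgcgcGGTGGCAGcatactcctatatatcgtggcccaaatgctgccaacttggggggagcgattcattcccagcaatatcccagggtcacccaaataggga
H19, 3667 bp upstream (chr7:142581736-142581885, minus strand): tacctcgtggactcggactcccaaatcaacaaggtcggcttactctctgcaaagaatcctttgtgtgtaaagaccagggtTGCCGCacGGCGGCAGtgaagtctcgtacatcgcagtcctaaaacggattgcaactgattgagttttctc
H19, start (chr7:142578156-142578305, minus strand): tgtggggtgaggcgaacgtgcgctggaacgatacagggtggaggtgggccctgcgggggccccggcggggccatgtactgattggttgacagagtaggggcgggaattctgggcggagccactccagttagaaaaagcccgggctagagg
Kcnq1ot1, start (chr7:143296536-143296685, minus strand): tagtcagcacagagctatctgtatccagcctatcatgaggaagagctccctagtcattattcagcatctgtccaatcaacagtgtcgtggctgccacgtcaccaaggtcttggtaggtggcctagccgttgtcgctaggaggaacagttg
Kcnq1ot1, 819 bp inside (chr7:143295656-143295805, minus strand): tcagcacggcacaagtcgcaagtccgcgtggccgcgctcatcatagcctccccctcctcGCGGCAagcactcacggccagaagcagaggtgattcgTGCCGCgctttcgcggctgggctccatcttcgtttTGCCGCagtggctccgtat
Airn, start (chr17:12741236-12741385, plus strand): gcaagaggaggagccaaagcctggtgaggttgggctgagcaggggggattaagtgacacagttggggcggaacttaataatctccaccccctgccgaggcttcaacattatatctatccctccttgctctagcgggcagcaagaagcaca
Meg3, start (chr12:109540836-109540985, plus strand): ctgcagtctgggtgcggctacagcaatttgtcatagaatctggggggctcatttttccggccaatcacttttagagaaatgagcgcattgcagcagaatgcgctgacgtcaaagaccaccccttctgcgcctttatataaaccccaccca
Peg3, intron, 841 bp inside (chr7:6729516-6729665, minus strand): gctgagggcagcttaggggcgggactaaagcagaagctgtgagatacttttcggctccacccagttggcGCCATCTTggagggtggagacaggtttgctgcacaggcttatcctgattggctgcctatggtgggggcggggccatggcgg
Peg3, intron, 2501 bp inside (chr7:6727856-6728005, minus strand): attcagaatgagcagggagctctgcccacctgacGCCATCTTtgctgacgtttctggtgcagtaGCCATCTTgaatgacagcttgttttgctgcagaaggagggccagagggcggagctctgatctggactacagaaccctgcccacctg
Mest, internal start (chr6:30737976-30738125, plus strand): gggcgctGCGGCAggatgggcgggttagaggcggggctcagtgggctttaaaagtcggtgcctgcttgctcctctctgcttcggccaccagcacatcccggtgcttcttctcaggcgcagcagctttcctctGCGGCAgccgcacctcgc
Peg10, start (chr6:4747196-4747345, plus strand): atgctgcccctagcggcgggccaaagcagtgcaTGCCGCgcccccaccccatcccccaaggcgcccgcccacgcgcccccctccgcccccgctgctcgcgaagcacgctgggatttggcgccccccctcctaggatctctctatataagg
Snrpn, internal start (chr7:60005076-60005225, minus strand): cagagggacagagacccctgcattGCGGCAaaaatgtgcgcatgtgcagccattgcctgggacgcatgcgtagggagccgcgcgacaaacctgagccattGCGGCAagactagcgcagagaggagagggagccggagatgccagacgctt
Zrsr1, internal start (chr11:22972916-22973065, plus strand): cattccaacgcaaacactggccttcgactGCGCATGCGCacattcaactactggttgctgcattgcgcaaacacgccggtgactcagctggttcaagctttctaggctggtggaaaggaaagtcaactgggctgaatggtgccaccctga

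The 3 peaks upstream of H19 each carry 1 GGNGGCAG match, and those 2167 and 3667 bp upstream carry 2 TGCCGC matches each. In the peak 3667 bp upstream, 1 of the 2 lies inside the GGNGGCAG match, on the other strand. Matches to these motifs are therefore not always separate sites. Over all 127632 shared peaks, 7.72% hold GGNGGCAG and 4.82% hold TGCCGC. The peak 819 bp inside Kcnq1ot1 holds 3 TGCCGC matches and 17 CpGs. The median is 3 CpGs over all shared peaks and 9 over the start peaks of the imprinted genes. TGCCGC is in 11.5% of the shared peaks at starts of all protein-coding and long noncoding genes. The stronger peak at the Kcnq1ot1 start holds 4 CpGs. Both printed Peg3 intron peaks hold GCCATNTT (1 and 2 matches), which 2.79% of all shared peaks do. The third shared peak in the Peg3 body, with 71 in replicate 1 and 45 in replicate 2, does not hold it. The strongest start peaks of H19, Kcnq1ot1, Airn and Meg3, as printed, hold none of the 4 motifs, which says only that these letters are not in those windows. A weaker Airn start peak (chr17:12741636-12741785, 49 and 29) holds 2 TGCCGC matches and 1 GGNGGCAG match.

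Nearly all of the imprinted genes had an open start. A shared start peak was present for 34 of the 37, that is 30 of the 33 protein-coding genes and 4 of the 4 noncoding ones. Over the whole annotation, 65.1% of protein-coding genes and 29.2% of long noncoding genes had one by the same rule. The imprinted genes have more annotated starts to be counted at, with a median of 5 per gene against 3 for protein-coding genes. At the outermost start alone the share was 81.1% for the 37 genes, against 59.1% of protein-coding and 27.5% of long noncoding genes. Of the 227 annotated starts of the 37 genes, 155 had a shared peak. These were 143 of 202 starts of the coding genes, beside 51.9% of all starts of protein-coding genes, and 12 of 25 starts of the noncoding ones, beside 30.6% of all starts of long noncoding genes. Starts are not separate observations, because neighbouring ones often lie near the same peak: the 37 genes had 79 different shared start peaks.

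The start peaks were mostly strong but differed widely between genes. Where a gene had several peaks, the strongest is the one with the highest mean percentile over both replicates. The strongest shared start peak of a gene had a median percentile of signal of 94.7, with a lowest value of 56.8 and a highest of 99.6, and the median over protein-coding genes with such a peak was 96. Ube3a, a ubiquitin ligase, had the strongest, 138 in replicate 1 and 120 in replicate 2. Slc22a18, a transporter gene, had the weakest, 41 and 38. Among the genes usually described as maternally expressed, 12 of 13 had a shared start peak, with a median percentile of 94.8, and among those usually described as paternally expressed 18 of 20 did, with a median of 92.6. The quartiles of these groups, 85.8 to 96.7 and 90.2 to 95.6, overlapped. In the other 4 genes, Gnas, Ube3a, Commd1 and H13, the expressed copy is described as depending on isoform or tissue. All 4 had a shared start peak, with a median percentile of 97.4 (quartiles 96.8 and 98.4).

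**Figure D1:**
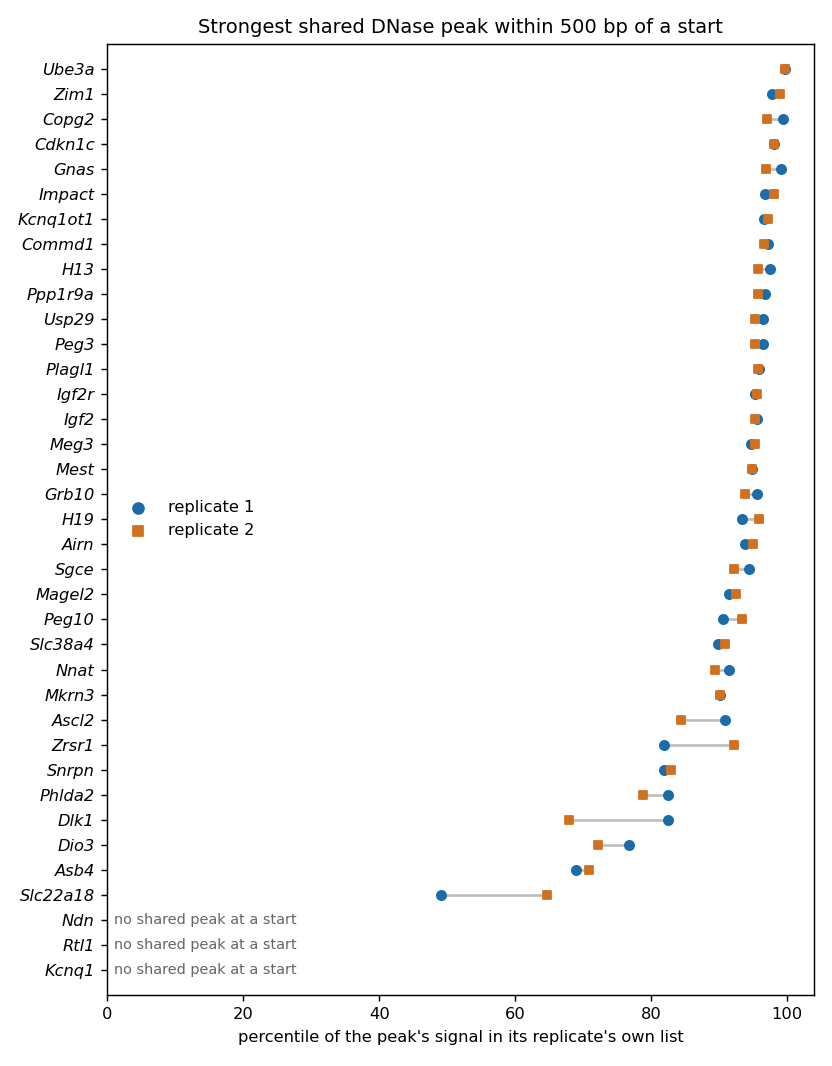
Strongest shared DNase peak within 500 bp of a start for each of the 37 imprinted genes (rows, ordered by the mean of both replicates), as the percentile of its signal among all peaks of the same replicate (horizontal axis, 0 to 100); circles are replicate 1 and squares replicate 2. Most genes lie above the 80th percentile in both replicates, Slc22a18 lies lowest, and Ndn, Rtl1 and Kcnq1 have no such peak.

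H19 and Igf2 share a domain on chromosome 7. H19 is a long noncoding RNA made from the maternal copy, and Igf2 encodes insulin-like growth factor 2, a fetal growth factor made from the paternal copy. The stretch 2 to 4 kb upstream of H19, which is known to bind CTCF when unmethylated and so decides which of the genes the shared enhancers reach, held 3 peaks in each replicate and all 3 were shared. Their signals were 72 and 64 at 2167 bp, 88 and 66 at 2607 bp and 75 and 55 at 3667 bp (replicates 1 and 2). In percentiles these peaks ranged from 81.9 to 89.4 in replicate 1 and from 83.6 to 89.7 in replicate 2. The start of H19 itself had 1 shared peak, 87 bp upstream, with 101 and 90, above all 3 of the upstream peaks in both replicates.

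Downstream of H19, where enhancers of the domain are known to lie, 3 shared peaks were present. They lay 6333, 7333 and 18293 bp from the H19 start in replicate 1, with signals of 67 and 69, 72 and 53, and 55 and 58. The replicates differed at this gene. Replicate 1 had 9 H19 peaks, all shared, whereas replicate 2 had 25, of which 16 were not shared and 0 of those 16 lay in a hotspot (an enriched region of the authors' list) of replicate 1. Hotspots covered 2502 bp around H19 in replicate 1 and 7692 bp in replicate 2, a ratio of 3.07, while over the whole lists the ratio was 0.836 and for the other 36 genes it ran from 0.436 to 1.66. What made the libraries differ there was not tested.

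Igf2 had 3 shared start peaks, none of them at its outermost start. The strongest lay at an internal start 7327 bp into the gene, with 112 and 86 and 22 CpGs. The second, 234 bp upstream of a start 9320 bp in, had 85 in replicate 1 and 93 in replicate 2, and the third had 71 in both. Here the replicates differed in the other direction: replicate 1 had 17 Igf2 peaks with 10 not shared, and replicate 2 had 10 with 3 not shared. Hotspots covered 5406 bp around Igf2 in replicate 1 and 2358 bp in replicate 2, a ratio of 0.436. Of the 37 genes, H19 had the highest ratio of cover between the libraries and Igf2 the lowest.

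**Figure D2:**
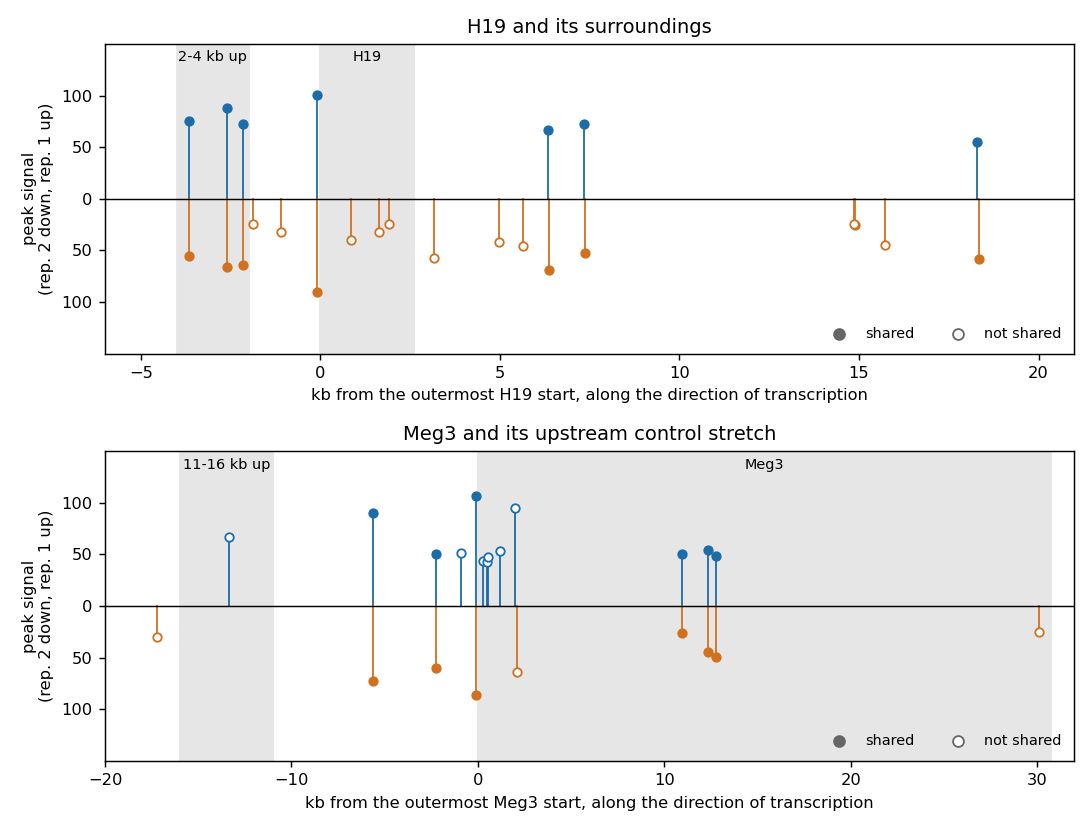
Peaks around H19 (top) and Meg3 (bottom) by distance from the outermost start in kb (horizontal axis), with the peak signal of replicate 1 drawn upward and of replicate 2 downward; filled points are shared peaks, open points are not, and shading marks the genes and the upstream control stretches. The 3 peaks 2 to 4 kb upstream of H19 appear in both replicates, unshared H19 peaks appear in replicate 2 only, and the stretch 11 to 16 kb upstream of Meg3 has 1 peak in replicate 1 only.

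In 2 domains a noncoding RNA starts inside a protein-coding gene that is expressed from the other parental copy. Igf2r, which encodes the receptor that clears IGF2, hosts the start of Airn in an intron, and Kcnq1, a potassium channel gene, hosts that of Kcnq1ot1. Both internal starts were open. The Kcnq1ot1 start peak (61 bp upstream) had 119 in replicate 1 and 99 in replicate 2, at the 96.6 and 97.2 percentiles. The Airn start peak had 103 and 85 (93.8 and 95), and 2 weaker shared peaks of replicate 1 lay within 399 bp of that start, with 52 and 49, matched by a single peak of 29 in replicate 2.

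The hosts differed at their own starts. Igf2r had a shared peak of 111 and 88 at its outermost start, slightly above the Airn start peak in both replicates. Kcnq1 had 0 shared start peaks at its 7 annotated starts: replicate 1 had a peak of 35 that lay 848 bp into the gene and replicate 2 a peak of 32 that lay 2088 bp in, at the 35.6 and 52.6 percentiles. The Kcnq1 body was nonetheless rich in peaks, with 37 shared. The strongest of them by the mean percentile of both replicates, 118 and 101, lies 9341 bp upstream of the Kcnq1ot1 start and therefore in the host but outside the noncoding gene. Kcnq1ot1 itself had 6 shared peaks in its body, the strongest only 62 and 52.

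Airn and Igf2r overlap and had many peaks along their length. Igf2r had 20 shared body peaks and Airn 22, and 18 shared peaks counted for both genes. That made 21.2 and 22 shared peaks per 100 kb of gene and flanks, against a median of 7.16 over all protein-coding and long noncoding genes. The strongest peak of the Airn body, 112 and 91, lay 39979 bp in, which is 11626 bp upstream of Igf2r.

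**Figure D3:**
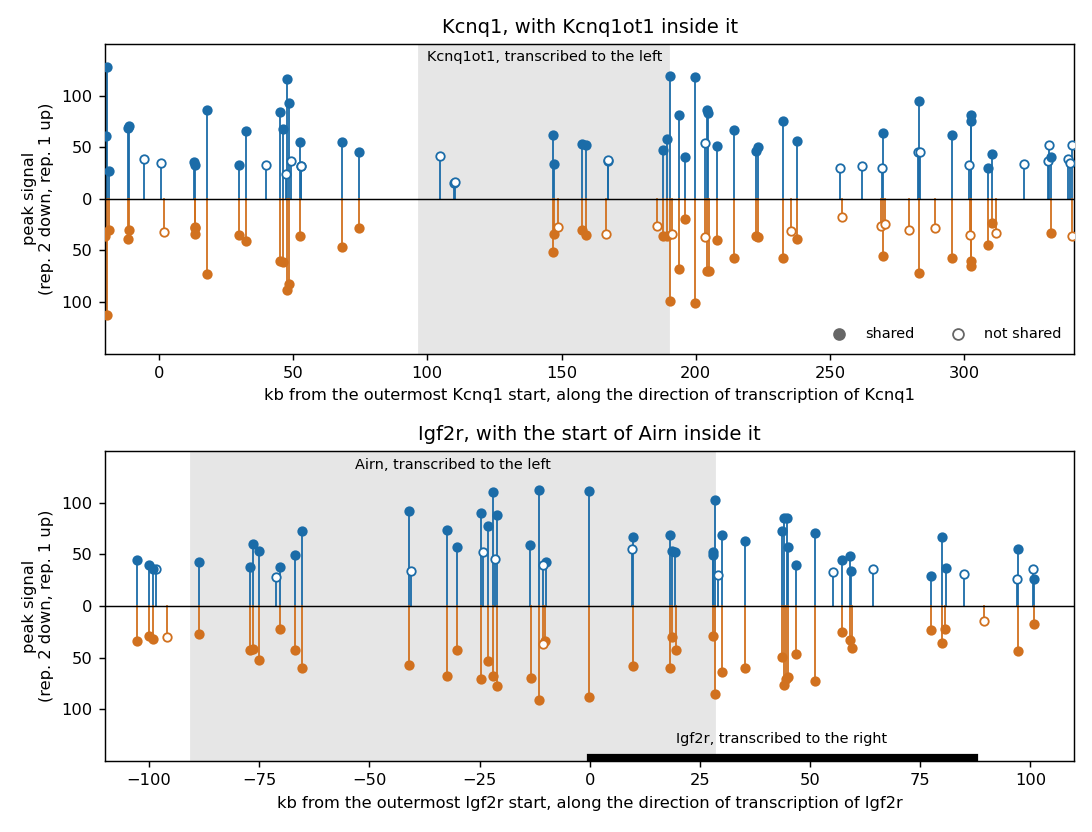
Peaks across Kcnq1 (top) and Igf2r (bottom) by distance from the host gene's outermost start in kb, with replicate 1 signal upward and replicate 2 downward, filled points shared and open points not; shading marks Kcnq1ot1 and Airn. Shared peaks of 119 and 99 and of 103 and 85 stand at the starts of the noncoding genes, at the right-hand edges of their shading, while the start of Kcnq1, at 0, has no shared peak and the start of Igf2r has one.

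The other genes of the Kcnq1ot1 domain limit growth or act in the placenta. Cdkn1c, which encodes the cell cycle inhibitor p57, had 1 shared start peak of 128 and 106, at the 98.1 percentile in both replicates. It also had 7 shared flank peaks, among them one of 113 and 75 at 3960 bp upstream. Slc22a18 and Phlda2, a restrainer of placental growth, were weaker, with strongest start peaks of 41 and 38 and of 73 and 49. Ascl2, a transcription factor of the trophoblast, had 3 shared start peaks, the strongest 92 and 56. At Phlda2 the shared peaks lay at 2 internal starts, not the outermost one.

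On chromosome 12 the paternally expressed genes Dlk1, Rtl1 and Dio3 lie with the maternally expressed noncoding RNA Meg3. Meg3 had a shared start peak 91 bp upstream with 107 and 86. Replicate 1 had 4 further peaks at Meg3 starts, from 43 to 53, none of which lay in a hotspot of replicate 2. In the stretch 11 to 16 kb upstream of Meg3, where the control region of the domain lies, replicate 1 had 1 peak of 67 (78.8 percentile) 13371 bp upstream and replicate 2 had 0. It was the one control region of 22 with no shared peak. Closer to Meg3, peaks of 90 and 73 at 5611 bp and of 50 and 60 at 2271 bp upstream were shared.

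The coding genes of this domain had weak or no start peaks. Dlk1, a membrane protein that holds back adipocyte differentiation, had 1 shared start peak of 73 and 40, at the 82.4 and 67.9 percentiles. Its flanks were stronger, with 9 shared peaks up to 95 and 74 at 14893 bp upstream. Dio3, which inactivates thyroid hormone, had 64 and 43. Rtl1, a retrotransposon-derived gene, had 0 start peaks in both replicates, but 4 shared peaks in its body, the strongest 100 and 81 at 4300 bp and the next 98 and 80 at 3980 bp.

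Peg3, a zinc-finger gene, and Usp29, a ubiquitin protease gene, are paternally expressed and start back to back. They shared 1 start peak, with 118 in replicate 1 and 86 in replicate 2. The peak 841 bp into the Peg3 intron was stronger in both replicates, with 120 and 100, and the one 2501 bp in had 97 and 72. These are the intron peaks with GCCATNTT printed above. Zim1, a maternally expressed zinc-finger gene beside them, had a start peak of 126 and 113, at the 97.8 and 99 percentiles. Usp29 also had 33 shared body peaks, the strongest 117 and 95 at 51112 bp.

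Peg10, derived from a retrotransposon, and Sgce, which encodes a sarcoglycan, also start back to back and shared a peak of 91 and 77. Sgce had another at an internal start, 106 and 73, which was stronger in replicate 1 and weaker in replicate 2. Of its 12 annotated starts, 11 had a shared peak. Farther along chromosome 6, Ppp1r9a, which encodes the actin-binding protein neurabin, had its strongest start peak 207693 bp into the gene, with 120 and 89, whereas the peak at its outermost start had 68 and 46. Asb4 had only 55 and 42 at a start, and a stronger shared peak of 118 and 81 that lay 656 bp upstream, outside the 500 bp window.

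Mest, a hydrolase-like gene named for its expression in mesoderm, had its open start inside the gene. Of its 10 annotated starts 3 had a shared peak, all 3 under the same peak of 108 and 84 at 14503 bp, which holds 2 TGCCGC matches. A further shared peak of 107 and 80 lay 920 bp upstream of that start. The outermost Mest start had 0 shared peaks. Copg2, a vesicle coat gene that ends next to Mest, had 136 and 98 at its own start.

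Gnas had the most shared start peaks of the 37 genes. It encodes the alpha subunit of the stimulatory G protein, and its alternative first exons differ in which parental copy is expressed. A shared peak lay at 15 of its 16 annotated starts, as 7 separate peaks. The outermost starts had 86 and 68, the start 13539 bp in had 74 and 52, the starts near 43 kb had 98 and 63 and 95 and 66, and the starts near 46 kb had the strongest peak, 134 and 97. The start of the antisense noncoding gene Nespas, which lies inside Gnas, had 122 and 103, and in replicate 2 this was above every start peak of Gnas itself.

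Plagl1 and Grb10 also had several open starts of unequal strength. Plagl1, a zinc-finger transcription factor, had 114 and 89 at the cluster of starts 30 kb into the gene, but at its outermost start the strongest shared peak had only 30 and 25, at the 22.4 and 32.3 percentiles. Grb10, an adaptor that dampens insulin and IGF signalling, had shared peaks at 3 of 9 starts. The peak 12733 bp in had 112 and 79, the one 1193 bp in had 86 and 79, and the one near the outermost start 58 and 34. At Plagl1 the strongest open start in both replicates was the internal cluster. At Grb10 the peak 12733 bp in was the strongest in replicate 1, but in replicate 2 it tied with the one 1193 bp in. Both genes are known to have an internal CpG island with differing parental methylation, which was not measured here.

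**Figure D4:**
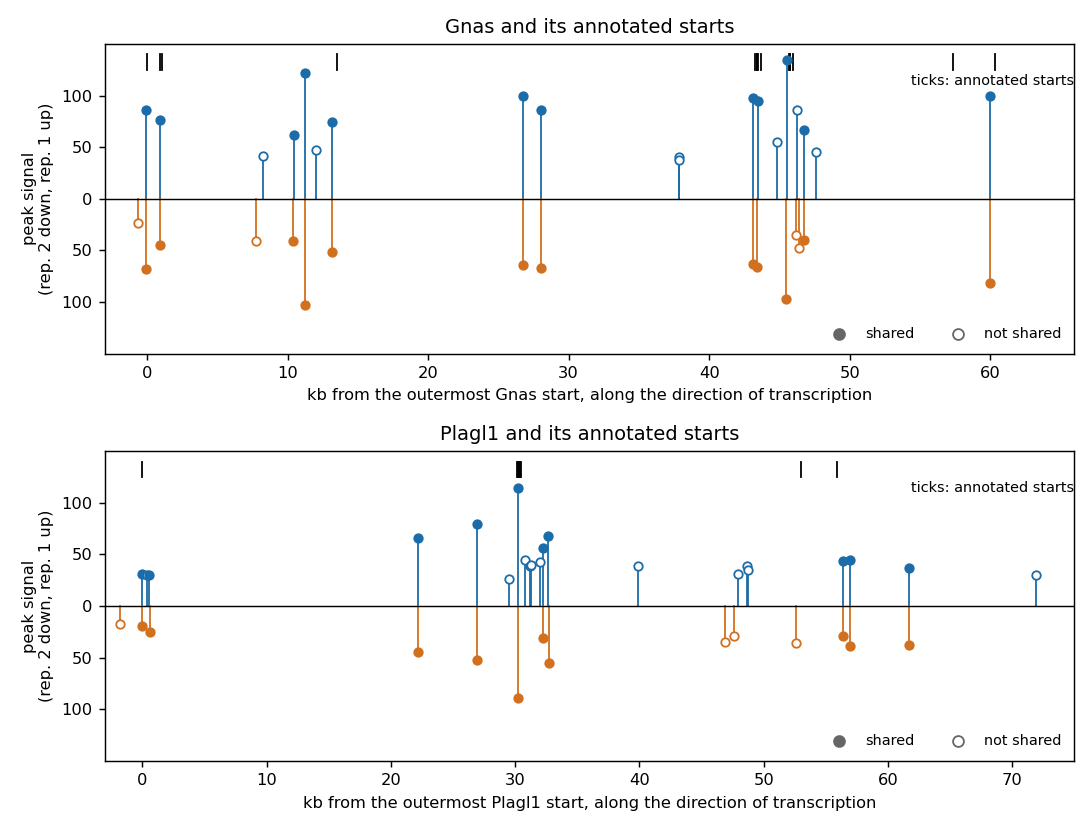
Peaks across Gnas (top) and Plagl1 (bottom) by distance from the outermost start in kb, with replicate 1 signal upward, replicate 2 downward, filled points shared and open points not; black ticks at the top of each panel mark annotated starts. The strongest start peaks, 134 and 97 at Gnas and 114 and 89 at Plagl1, stand at internal clusters of starts.

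The domain on chromosome 7 that holds Snrpn, Ndn, Magel2, Mkrn3 and Ube3a was uneven in its peak density. Snrpn, Ube3a and Ndn had 1.01, 4.07 and 4.58 shared peaks per 100 kb, under the median of 7.16 over all genes, while Magel2 had 8.96 and Mkrn3 14.1. Snrpn, which encodes a splicing protein, had 2 shared peaks in all and the lowest density of the 37. The one at its internal start, 135069 bp from the outermost, had 72 and 54 and holds 2 TGCCGC matches. At the outermost Snrpn start replicate 1 had a peak of 18, at the 1.65 percentile, and replicate 2 had 0. Ndn, which encodes necdin, has 1 annotated start and had 0 start peaks there in both replicates. A shared peak of 102 and 80, with 11 CpGs and 1 GCGCATGCG match, lay in its exon 1701 bp downstream of that start. Whether a transcript begins at this peak was not tested. Magel2 and Mkrn3 had 94 and 74 and 90 and 67 at their starts. Ube3a, which is expressed from the maternal copy in neurons and from both in most other tissues, had the strongest start peak of all 37, as given above, but 0 shared peaks in its flanks.

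The remaining genes include retrogenes that sit inside hosts. Zrsr1, a splicing-factor retrogene in an intron of Commd1, had 4 shared start peaks. Among them were one of 82 and 55 at its outermost start and, as the strongest, one of 72 and 73 near internal starts. Its surroundings were the densest of the 37, with 24.7 shared peaks per 100 kb. Several of its 7 shared flank peaks lie at starts of other genes, Commd1 and Cct4. Commd1 had 122 and 95 at its own start. H13, a signal peptide peptidase gene, had 124 and 89, and the retrogene Mcts2 inside it 107 and 96.

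Nnat, which encodes neuronatin, had 4 shared start peaks up to 94 and 65 and lies in an intron of Blcap. Impact, a regulator of translation, had 5 shared start peaks. The strongest, 120 and 105, lay 18058 bp into Impact, and the one at its outermost start had 85 and 62. Slc38a4, an amino acid transporter gene, had 3 shared start peaks, the strongest 89 and 69.

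Of 22 control regions, placed from textbook knowledge as the stretches upstream of H19 and Meg3 and 1 kb on each side of the starts of 20 genes, 21 had a shared peak. Replicate 1 had a peak in all 22 and replicate 2 in 21. The regions differ in size and number of starts, so no share over other regions was computed, and the count does not set them apart from other starts. They are also not all separate: the regions of Peg3 and Usp29, of Peg10 and Sgce, and of Gnas and Nespas have shared peaks in common. By the strongest shared peak of each region, the highest percentiles were those of Cdkn1c (128 and 106) and Gnas (134 and 97), and the lowest that of Ndn (48 and 53). The Ndn window does not reach the stronger peak of 102 and 80 that lies 1701 bp downstream of its annotated start. The windows take in every annotated start of the 20 genes, so a peak in them need not lie at a stretch methylated in the germ line. That Gnas peak lies 45510 bp into the gene, while the peak at the Nespas start had 122 and 103. The control regions held 64 different shared peaks, of which 11 (17.2%) carried TGCCGC and 9 (14.1%) GGNGGCAG. Over the 25748 shared peaks within 500 bp of a start of a protein-coding or long noncoding gene these shares were 11.5% and 9.19%. The sets are not matched, since the control windows reach 1 kb from a start. They also include the stretch upstream of H19, whose 3 shared peaks all hold GGNGGCAG. YY1 and NRF1 matches were in 2 of the 64 peaks each (3.12%), against 3.66% and 1.74%. Over all 385 shared peaks of the imprinted genes the share with TGCCGC was 7.01%, against 4.82% of all shared peaks, and that with GGNGGCAG 8.05%, against 7.72%.

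Peaks were also common away from the starts. A shared body peak was found for 25 of the 37 genes, against 46.8% of all protein-coding and long noncoding genes, and a shared flank peak for 35 of 37, against 78.3%. Among protein-coding genes alone, a body peak was found for 22 of 33 imprinted genes, against 11057 of all 21938. A flank peak was found for 31 of these 33, against 17182 of the 21938. The imprinted genes are longer, with a median of 30.7 kb against 12.8 kb (17.4 kb for protein-coding genes alone), so body counts are not matched for length. Per 100 kb of gene and flanks the median was 11.7 shared peaks (quartiles 9.43 and 16.5), against 7.16 (2.97 and 12). For protein-coding genes alone it was 7.4 (3.36 and 12.2). Snrpn and Ube3a were the 2 without a shared flank peak. The genes with the most shared body peaks were Kcnq1 with 37, Usp29 with 33 and Airn with 22.

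The genes lie in clusters, so their peaks are not independent of each other. The 37 genes had 385 different shared peaks, and 75 of these counted for 2 or more of the genes. The largest overlaps were 18 peaks for Igf2r and Airn, 13 for Kcnq1 and Kcnq1ot1, and 11 for Zrsr1 and Commd1. Of 306 body or flank peaks that were at no start of the 37 genes, 14 lay at the start of some other gene, such as the peak of 128 and 113 upstream of Kcnq1, which lies at a start of Trpm5.

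The share of peaks that recurred between replicates was a little above that over all peaks, which was 61.2% in replicate 1 and 65% in replicate 2 as given above. In replicate 1, 385 of 582 were shared (66.2%, 95% Wilson interval 62.2 to 69.9), and in replicate 2, 383 of 549 (69.8%, 65.8 to 73.5). These intervals cover sampling of peaks only, and neighbouring peaks are not independent. At starts the shares were 74.5% (65.5 to 81.9) in replicate 1 and 83.5% (74.6 to 89.7) in replicate 2, beside 70.1% and 73% of the start peaks of all protein-coding and long noncoding genes. Of the 197 unshared peaks of replicate 1, 48 still lay in a hotspot of replicate 2, and of the 166 unshared peaks of replicate 2, 46 lay in one of replicate 1.

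The genes differed in how far their peaks recurred. H19 had all 9 of its replicate 1 peaks shared and 36% of its replicate 2 peaks, the lowest of the 37 genes in replicate 2. Snrpn had the lowest share in replicate 1, with 2 of 8 peaks (25%), and both of its replicate 2 peaks were shared. Ndn, Magel2, Mkrn3, Ube3a and Dio3 likewise had every replicate 2 peak shared, with 2 to 6 peaks each. Airn and Igf2r recurred in both lists, with 81.4% and 77.1% in replicate 1 and 94.4% and 92.9% in replicate 2.

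**Figure D5:**
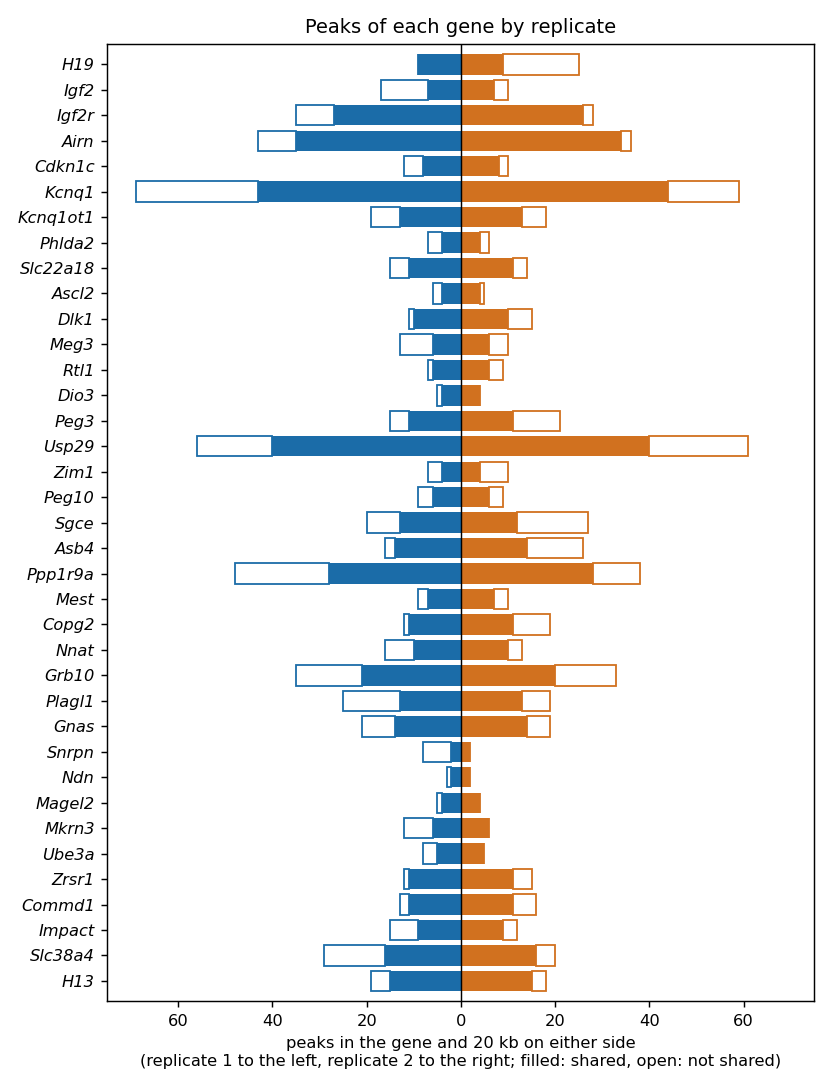
Number of peaks of each imprinted gene and its 20 kb flanks (horizontal axis), with replicate 1 to the left and replicate 2 to the right; filled bars are shared peaks and open bars are not. H19 has 16 unshared peaks in replicate 2 and 0 in replicate 1, and Igf2 has 10 unshared peaks in replicate 1 and 3 in replicate 2.

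Further imprinted genes and the proteins that set or keep imprints were examined in the same way. Of 45 other genes described as imprinted in at least some tissue, 34 had a shared start peak, 31 of 38 coding (81.6%) and 3 of 7 noncoding (42.9%), beside the shares of 65.1% and 29.2% given above. Begain, Blcap and Cd81 had the most, with 4 shared start peaks each, as many as Phactr2. Kcnk9, Klf14 and Mas1 were among the 11 with none. Of the 7 noncoding genes, Nespas, Peg13 and Xist had one, and Rian, Mirg, Snhg14 and Nctc1 did not.

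Of 26 genes whose products set, read or keep imprints, 23 had a shared start peak (88.5%), beside the 65.1% of all protein-coding genes. Dnmt3a, a de novo DNA methyltransferase, had 5, and Tet1, which oxidises methylcytosine, had 4. Several genes followed with 3 each, Ctcf among them with a strongest peak of 131 and 96. Zfp57, which binds TGCCGC when methylated, had 1 shared start peak of 98 and 91, and Yy1 had 145 and 115. Ctcfl and Dppa3, which are known for expression in germ cells and the early embryo, and Nlrp2, an oocyte gene, had 0 start peaks in both replicates.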

How the data were processed

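DNase-seq of embryonic limb was analysed as 1 group of 2 biological replicates. Per the labels, the authors placed both on mm10; the aligner, the peak caller and their settings were not given in the sources used here. For each library, the peak signal deposited by the authors is a whole number per peak (2 to 148 in replicate 1, 1 to 143 in replicate 2) whose scale is not stated, and the hotspot lists deposited by the authors carry a −log10 q-value that was not used for ranking. Peaks off the autosomes, X and Y (291 and 277) were set aside. Depth is unknown, so no interval that needs reads is given.

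Shared peaks, gene classes, percentiles (middle rank for ties) and motif matches were computed with Python 3.11.15, NumPy 2.4.6 and SciPy 1.17.1, drawn with matplotlib 3.10.9, and tested on simulated peaks. Shared peaks are given at replicate 1 coordinates. The genes are those of GENCODE M21, and long noncoding genes are those of its lincRNA, antisense, processed transcript, sense and related types. Starts are the 5′ ends of all annotated transcripts. No test was made, since the series has 1 group; the share of all genes, starts or peaks called by the same rule stands beside the counts of genes, starts and recurring peaks, but not beside those of control regions. The members, lists, motifs and alternatives were chosen with earlier results of these data known. Named were all 37 genes with their strongest start, body or flank peaks, every control region, and from each further list the 3 genes with the most shared start peaks and, alphabetically, at most 3 that had none. Other genes, and peaks beyond the strongest, were named after their values were seen. The alternatives were a 1 bp overlap, each replicate alone, the 50000 peaks of highest signal, hotspots, other windows and flanks, and the outermost start only.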

Additional observations from a re-analysis of the deposited data

How the results depend on the processing

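The counts of genes and control regions kept within 1.5 times of their main value under every alternative tried. The number of imprinted genes with an open start ran from 30 to 35, with 30 among the 50000 peaks of highest signal, where Slc22a18, Dlk1, Dio3 and Asb4 dropped out, and 30 at the outermost start only, where Igf2, Phlda2, Mest and Snrpn did. Kcnq1 gained a start peak in either replicate alone, and Ndn with a window of 1000 bp. Body counts ran from 18 to 30, flank counts from 27 to 35 and control regions from 20 to 22. The other imprinted genes ran from 27 to 36 and the genes that set or keep imprints from 22 to 23. Recurrence moved too: with an overlap of at least 1 bp it was 71% in replicate 1 and 75.4% in replicate 2, and among the 50000 peaks of highest signal 83.3% and 79.4%, alternatives added after seeing the data. Of 370 recomputed counts of start peaks of single genes over 10 settings, 243 were equal to the main count and 127 were not. No paired analysis was possible because there is only 1 group. Depth limits absence: a start with no peak may hold one too weak to call.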
